A study of Homo sapiens with 8 samples.

Results

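Nuclear-encoded subunits of the respiratory chain and ATP synthase were followed across 8 arrays of HEK293T cells that carried shRNAs against TET1, a control shRNA, TET1 plasmids or a vector. Members were all protein-coding genes whose platform symbol belongs to the subunit families of complexes I to V. Entries annotated as pseudogenes were left out, as were assembly factors, and the transcript cluster with the highest mean stood for each gene. This gave 26 genes among the 14884 gene symbols named on the array, with 6 in complex III, 17 in complex IV and 3 in complex V. Complexes I and II had 0 members, because none of the symbols attached to the transcript clusters belongs to them, and they are not analysed here. The RefSeq gene table holds 86 protein-coding symbols of these families, of which 36 belong to complex I, 4 to complex II, 10 to complex III, 17 to complex IV and 19 to complex V. The complex IV symbols of these families were thus all covered, those of complex III in part, and ATP synthase by 3 small or accessory proteins.

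Every array held RNA of HEK293T, an established line from human embryonic kidney that expresses the large T antigen of SV40. The shRNA arrays came from clones made with a lentivirus, namely shTET1#1 and shTET1#2, which carry different shRNAs against TET1, and 1 control clone, shControl. The plasmid arrays came from cells transfected with TET1-CD or its mutant mTET1-CD, with TET1-FL or its mutant mTET1-FL, or with an empty vector, where the m constructs are catalytic mutants per the study's design text, all of them sorted by fluorescence 3 days later. Each array is 1 sample, and each shRNA line is 1 clone. TET1 oxidises 5-methylcytosine in DNA, and the design asked what follows from losing it, from adding it, and from its catalytic activity.

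The respiratory chain passes electrons from NADH and succinate through complexes I, II, III and IV to oxygen and pumps protons across the inner mitochondrial membrane, and ATP synthase, complex V, uses the resulting gradient to make ATP. A few core subunits are encoded in mitochondrial DNA, and the rest are nuclear genes whose products are imported. Several nuclear subunits of cytochrome c oxidase (complex IV) come in a broadly expressed form and a form restricted to muscle, lung or testis. Their promoters are textbook targets of the transcription factors NRF1, GABP (also called NRF-2) and YY1.

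Values are log2 signals as deposited, and array medians lay between 5.47 and 5.55, so a value near 5.5 may be limited by background. Of 53617 transcript clusters with values, 28946 passed a low-signal filter, which asks for a value over the array's own median on 2 or more of the 8 arrays. The filter kept 24 of the 26 members, and COX7A1 and COX7B2, forms of muscle and testis, lay below the median on all arrays. TET1 cluster 16705381 stood at 8.62 in shTET1#1 and 9.14 on the array labelled shTET1#2, against 9.29 in shControl, so the second clone had little less TET1 signal than the control. Cluster 16715048 of TET1 stood at 5.27 in shTET1#1 and 6.20 on the array labelled shTET1#2, against 5.71 in shControl, so there the second clone lay above the control. The same cluster stood at 12.10 with TET1-CD, 12.03 with mTET1-CD, 11.80 with TET1-FL and 11.91 with mTET1-FL, against 5.86 with the vector. Cluster 16705381 stood at 10.42, 11.05, 12.22 and 12.47 in the same order of plasmids, against 9.51 with the vector. On that cluster the TET1 signal was thus not matched between CD and FL, nor between TET1-CD and mTET1-CD. Of the markers of HEK293 cells, PAX2, LHX1, EYA1 and VIM were named on the array and lay above the median on all 8 arrays, and the hepatocyte and endothelial markers ALB and PECAM1 lay below it on all 8. In whole-culture RNA, fewer cells of a kind and less RNA per cell cannot be told apart.

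Several broadly expressed subunits gave a high and steady signal on every array. COX6A1 is the broadly expressed form of subunit VIa and the marker gene of the group. It lay between 12.69 and 12.88 on cluster 17008088, which may read another copy of the gene. The gene's other cluster, 16757886, lay between 4.92 and 7.08, so the steady signal holds for 17008088 only. COX4I1, the broadly expressed form of subunit IV, lay between 11.25 and 11.63. COX8A, the broadly expressed form of subunit VIII, lay between 11.03 and 11.35. COX5A lay between 10.38 and 10.57, and the complex III core protein gene UQCRC2 between 11.10 and 11.23. These 5 genes are the members with a mean of at least 10, and the median of their ranges over the 8 arrays was 0.19, against 0.58 for all 1629 kept clusters with such a mean. CYC1, which encodes the haem-carrying cytochrome c1 of complex III, lay between 9.87 and 10.23.

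Members with lower signal varied more. The 19 kept members with a mean under 10 had a median range of 0.61, against 0.67 for all 27317 such clusters. COX8C, a testis form of subunit VIII, had the widest range of the members, at 1.74, followed by UQCRB (1.34), ATP5IF1 (1.09) and COX7B (1.05). UQCRB encodes the small subunit of complex III that borders its ubiquinone site, and ATP5IF1 encodes a protein that blocks ATP hydrolysis by ATP synthase. COX7B encodes a small membrane subunit of complex IV. At the other end, UQCRC2 had a range of 0.13, and COX6A1, ATP5MK and COX5A of 0.19 each. ATP5MK and ATP5MJ are small subunits of the membrane part of ATP synthase. The heat map of subunits by array shows that most of the variation sits in a handful of genes.

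**Figure D1:**
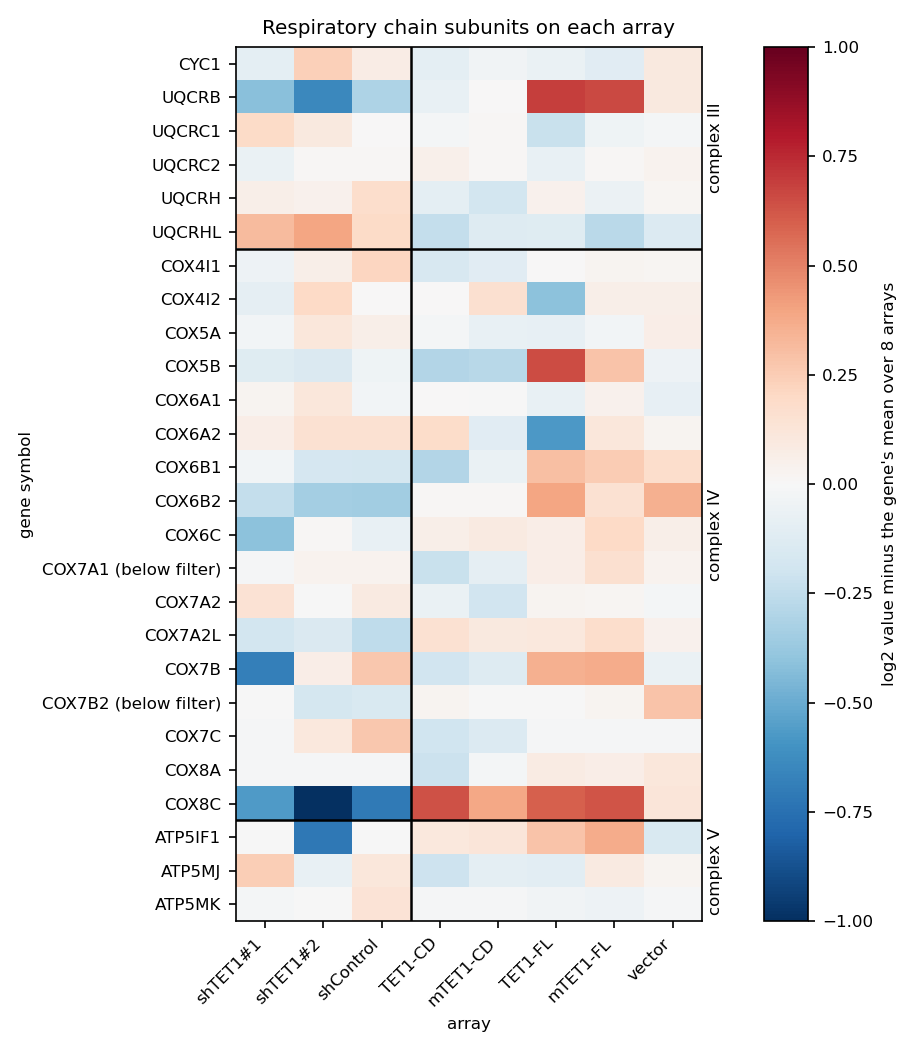
Heat map of the 26 genes (rows, by complex) on the 8 arrays (columns), coloured by the log2 value minus the gene's own mean over the 8 arrays, with the colour scale ending at 1 on either side. COX8C and UQCRB are low on the 3 shRNA arrays, COX5B and UQCRB are high on both FL arrays, and COX7B is low in shTET1#1.

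The first comparison set the TET1 shRNA clones against the control clone. None of the 24 kept members passed the limma threshold (adjusted p under 0.05 over all 28946 clusters), nor did any cluster, so that percent called was 0%. At an unadjusted p under 0.05 there were 0 members as well, while 7.93% of all clusters had such a p. The members' median difference was -0.031, with 7 above 0 and 17 below, against -0.010 for all clusters. By complex, 2 of 6 members of complex III, 5 of 15 of complex IV and 0 of 3 of complex V lay above 0.

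COX7B had the lowest value of the members in this comparison. It stood at 7.08 in shTET1#1 and 7.84 on the array labelled shTET1#2, against 8.04 in shControl, so that the deficit lay mostly in 1 clone. The fitted difference was -0.58 ± 0.33 (SE; 95% interval -1.43 to 0.27, limma adjusted p = 0.75). ATP5IF1 showed the reverse split, at 7.46 in shTET1#1 and 6.75 on the array labelled shTET1#2, against 7.46 in shControl (-0.35 ± 0.31, adjusted p = 0.843). In complex III, UQCRB stood at 6.80 in shTET1#1 and 6.57 on the array labelled shTET1#2, against 6.92 in shControl, a difference of -0.23. UQCRHL, a gene nearly identical to the hinge protein gene UQCRH, was the highest of complex III at 0.16. COX6A1 stood at 12.80 in shTET1#1 and 12.88 on the array labelled shTET1#2, against 12.75 in shControl, with a 95% interval for the difference of -0.30 to 0.49. For ATP5MJ, the highest of complex V, the difference was -0.022.

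Clone by clone, 1 of 24 members was at least 1.5-fold from the control in shTET1#1, where 8% of all clusters were, and this was COX7B, lower by 1.94-fold. In the array labelled shTET1#2 it was also 1 of 24, where 13.6% of all clusters were, and this was ATP5IF1, at -0.71. Both clones share the control array. Markers of HEK293 cells moved with the clones: EYA1 stood at 8.19 in shTET1#1 and 7.66 on the array labelled shTET1#2, against 6.31 in shControl, and VIM cluster 16702767 at 8.04 and 8.01 in the same clones, against 8.60. The other VIM clusters lay further apart, with 16712272 at 6.94 and 6.62, against 7.92, and 16712274 at 6.66 and 6.05, against 7.74. PAX2 and LHX1 stayed within 6.28 to 6.51 on these 3 arrays. Their part in the members' values was not tested.

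The second comparison, wild-type minus mutant plasmids, asked what depends on catalytic activity. No member passed (limma, percent called 0% of all clusters), and 0 of 24 had an unadjusted p under 0.05, against 1.96% of all clusters. The median difference was -0.028, with 7 above 0 and 17 below, against 0.0027 for all clusters. COX4I2, the lung form of subunit IV, was lowest: it stood at 5.89 with TET1-CD and 5.48 with TET1-FL, against 6.05 with mTET1-CD and 5.95 with mTET1-FL. These values lie near the array medians. The difference was -0.31 ± 0.17 (SE; 95% interval -0.74 to 0.12, adjusted p = 1).

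COX5B, the zinc-binding subunit of complex IV, was highest at 0.18 ± 0.15 (adjusted p = 1), and this came from 1 construct. It stood at 6.89 with TET1-CD and 7.84 with TET1-FL, against 6.90 with mTET1-CD and 7.47 with mTET1-FL. In complex III, UQCRH was highest at 0.092 and the core protein gene UQCRC1 lowest at -0.10. In complex V, ATP5MK stood at 0.0098 and ATP5MJ at -0.15. COX6A1 differed by -0.052, with a 95% interval of -0.37 to 0.27. Within CD, 0 of 24 members were at least 1.5-fold apart, against 3% of all clusters. Within FL it was 1, against 4.3%, namely COX6A2, the heart and muscle form of subunit VIa, at 5.15 with TET1-FL against 5.84 with mTET1-FL. With CD it lay the other way, at 5.91 with TET1-CD against 5.61 with mTET1-CD. The TET1-FL value of COX6A2 lies under that array's median of 5.52, where background may limit it.

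Cells given any of the 4 TET1 plasmids were then set against those given the vector. Again 0 of 24 members passed (limma, percent called 0%) and 0 had an unadjusted p under 0.05, against 15% of all clusters. The members' median was -0.051, with 8 above 0 and 16 below, against 0.0014 for all clusters. COX8C had the highest difference, 0.44 ± 0.24 (SE, adjusted p = 0.467). It stood at 6.04 with TET1-CD, 5.80 with mTET1-CD, 6.01 with TET1-FL and 6.04 with mTET1-FL, against 5.53 with the vector, where the vector value lies at the array median. ATP5IF1 stood at 7.57, 7.59, 7.75 and 7.84 in the same order of plasmids, against 7.32 with the vector (0.37 ± 0.29, adjusted p = 0.616). For both genes all 4 plasmids lay above the single vector array. The share of all clusters with all 4 plasmids on the same side of the vector was not counted, here or for CYC1 below.

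CYC1 lay the other way with all 4 plasmids, at 9.88, 9.95, 9.92 and 9.87, against 10.08 with the vector (-0.17 ± 0.18, adjusted p = 0.729). COX6B2, the testis form of subunit VIb, was the lowest of complex IV at -0.21, UQCRB the highest of complex III at 0.22, and ATP5MJ the lowest of complex V at -0.11. COX6A1 differed by 0.072, with a 95% interval of -0.29 to 0.43. Counted plasmid by plasmid at 1.5-fold from the vector, TET1-CD had 0 members (15.7% of all clusters), mTET1-CD 0 (13.4%), TET1-FL 3 (13%) and mTET1-FL 0 (11.9%). The 3 with TET1-FL were COX5B (0.70), UQCRB (0.59) and COX6A2 (-0.61), whose TET1-FL value lies under the array median. All 4 differences share the vector array.

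**Figure D2:**
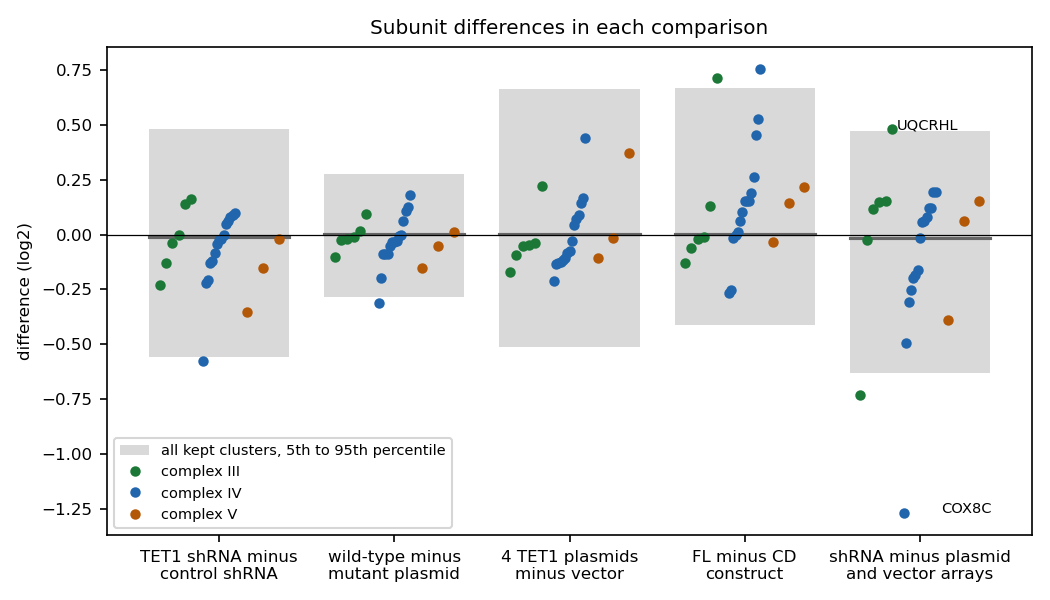
Fitted difference (log2) of each of the 24 kept members in 5 comparisons, coloured by complex, over a grey band from the 5th to the 95th percentile of all 28946 kept clusters with their median as a line. Members named are those with a limma adjusted p under 0.05, and most points lie inside the band.

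The fourth comparison, FL minus CD over wild-type and mutant protein, had the widest fitted differences of members among these 4 comparisons. UQCRB stood at 7.91 with TET1-FL and 7.88 with mTET1-FL, against 7.15 with TET1-CD and 7.23 with mTET1-CD, and at 7.32 with the vector. COX5B stood at 7.84 with TET1-FL and 7.47 with mTET1-FL, against 6.89 with TET1-CD and 6.90 with mTET1-CD, and at 7.13 with the vector. For both genes the FL arrays lay above all CD and vector arrays, for wild-type and mutant protein alike. The differences were 0.71 ± 0.14 for UQCRB and 0.75 ± 0.15 for COX5B (SE), and neither passed (limma adjusted p = 0.16 and 0.157).

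COX6B1, the broadly expressed form of subunit VIb on the cytochrome c side of complex IV, stood at 8.03 with TET1-FL and 7.98 with mTET1-FL, against 7.44 with TET1-CD and 7.67 with mTET1-CD. Its vector value of 7.90 lay near the FL arrays, and the difference was 0.45 ± 0.14 (adjusted p = 0.28). COX7B stood at 8.12 with TET1-FL and 8.14 with mTET1-FL, against 7.58 with TET1-CD and 7.64 with mTET1-CD, and at 7.70 with the vector. Its fitted difference of 0.53 had a 95% interval of -0.17 to 1.22 (adjusted p = 0.486), since the spread used includes that gene's gap between the TET1 shRNA clones. The lowest member was COX6A2 at -0.26, which came from its low TET1-FL value, under the median of that array. ATP5IF1 was the highest of complex V at 0.21 and ATP5MK the lowest at -0.034, and UQCRC1 the lowest of complex III at -0.13.

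Over the group, 0 of 24 members passed (limma, percent called 0%), and 3 (12.5%) had an unadjusted p under 0.05, namely COX5B, UQCRB and COX6B1, against 13.7% of all clusters. That share is near the background. The median difference was 0.12, with 15 above 0 and 9 below, against 0.0031 for all clusters. Both FL arrays lay above all CD and vector arrays for 6 of 24 members (25%), against 15.7% of all clusters, and below them for 2 members (8.33%), against 12.5%. The 6 were UQCRB, COX5B, COX6B1, COX7B, COX7A2 and ATP5IF1, and the 2 were UQCRC1 and ATP5MK. For ATP5MK the CD and vector arrays share a single deposited value of 7.82, against 7.80 with TET1-FL and 7.78 with mTET1-FL. Between wild-type arrays 4 members were at least 1.5-fold apart, against 11.8% of all clusters, and between mutant arrays 1 was, against 8.98%.

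COX6A1 was read by 2 transcript clusters that disagreed here. Cluster 17008088, which stands for the gene by its higher mean, differed by -0.016 between FL and CD, with a 95% interval of -0.34 to 0.30. The other, 16757886, stood at 7.08 with TET1-FL and 6.84 with mTET1-FL, against 5.39 with TET1-CD and 5.47 with mTET1-CD, and at 5.82 with the vector. It passed the filter only through the FL and vector arrays, and its CD values lie just under the array medians, where background may hold them up, so no fold is given. The fitted difference was 1.53 ± 0.15 (SE, limma adjusted p = 0.114). On the shRNA arrays it stood at 5.10 in shTET1#1, 4.92 on the array labelled shTET1#2 and 5.32 in shControl. These values lie under the array medians, where background may limit them. The difference from the 5 other arrays was -1.01 (limma adjusted p = 0.172), and of those arrays the FL arrays lay furthest above. Which part of the transcript, or which copy of the gene, each cluster reads was not analysed here.

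**Figure D3:**
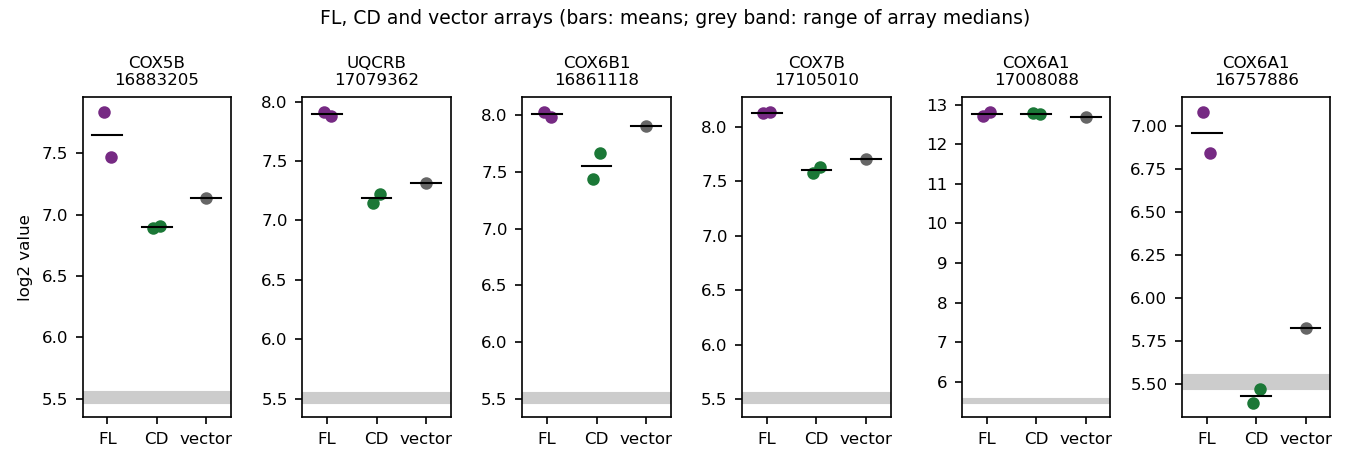
Log2 values on the 2 FL arrays, the 2 CD arrays and the vector array for 5 members and the second COX6A1 cluster (16757886), each panel with its own axis, with bars at the means and the range of array medians in grey. FL points lie above CD points for COX5B, UQCRB, COX6B1, COX7B and COX6A1 16757886, and overlap them for COX6A1 17008088.

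Promoter sequence was examined beside these values. RefSeq windows of GRCh38.p14, from 250 bases before to 50 after the start, were matched for 20 of the 26 members, in 22 windows. The letters CCGGAAG, bound by GABP, were found on either strand in 7 of these windows, against 10.3% of all 35116 windows. The letters AANATGGC, bound by YY1, were found in 6, against 6.58%, and the NRF1 core CGCATGCG in 1, against 2.02%. At least 1 of the 3 was present in 11 of the 22 member windows, against 17.2% of all windows. The 250 bases before the start are printed 5′ to 3′ for COX5B, COX6B1, COX7B and COX6A1, because these genes, or for COX6A1 its second cluster, had the widest FL minus CD differences among the members with a window. Capitals mark a match to any of the 3 motifs, none of which overlap in these 4 windows.
COX5B, chr2:97645812-97646061, strand plus: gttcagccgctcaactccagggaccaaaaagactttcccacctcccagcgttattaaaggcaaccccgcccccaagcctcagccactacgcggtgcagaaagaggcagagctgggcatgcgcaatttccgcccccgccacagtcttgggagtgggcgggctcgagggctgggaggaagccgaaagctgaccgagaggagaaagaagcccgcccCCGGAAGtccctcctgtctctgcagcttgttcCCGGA
COX6B1, chr19:35648073-35648322, strand plus: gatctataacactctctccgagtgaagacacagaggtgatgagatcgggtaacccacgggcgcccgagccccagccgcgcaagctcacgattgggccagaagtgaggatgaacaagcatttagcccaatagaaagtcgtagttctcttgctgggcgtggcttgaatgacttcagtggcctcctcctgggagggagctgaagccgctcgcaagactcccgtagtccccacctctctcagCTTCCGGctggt
COX7B, chrX:77899218-77899467, strand plus: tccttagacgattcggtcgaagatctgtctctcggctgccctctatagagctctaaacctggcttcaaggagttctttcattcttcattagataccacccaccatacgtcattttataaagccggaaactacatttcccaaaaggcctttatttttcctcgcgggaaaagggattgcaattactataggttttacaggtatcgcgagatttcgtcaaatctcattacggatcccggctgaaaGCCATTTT
COX6A1, chr12:120437863-120438112, strand plus: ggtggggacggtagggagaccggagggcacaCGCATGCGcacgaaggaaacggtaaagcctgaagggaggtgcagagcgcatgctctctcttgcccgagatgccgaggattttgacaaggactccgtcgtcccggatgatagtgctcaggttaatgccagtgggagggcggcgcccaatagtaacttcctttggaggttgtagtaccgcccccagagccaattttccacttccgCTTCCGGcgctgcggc

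COX5B has 2 matches to the GABP letters, the second of them running 2 bases past the start. COX6B1 has 1 at -12 to -6 and COX6A1 1 at -16 to -10, both on the minus strand of the window, and COX6A1 also has the NRF1 core at -219 to -212 and a YY1 match at 12 to 19, past the bases printed. COX7B has only a YY1 match, at -8 to -1. The same GABP letters lie in the windows of COX4I1, COX8A, UQCRH and ATP5MK, whose FL minus CD differences were 0.15, 0.19, 0.13 and -0.034. Of the other members higher on both FL arrays, ATP5IF1 has none of the 3 motifs in its window, and COX7A2 has a YY1 match in 1 of its 2 windows. These windows held a median of 18.5 CpG dinucleotides in 300 bases, against 14 over all windows, with 42 in COX4I1, 20 in COX5B and 10 in COX8C.

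The last comparison set the 3 shRNA arrays against the 5 plasmid and vector arrays, which differ in lentiviral clone against transfected and sorted cells and in all that goes with it, so that these causes cannot be told apart. Its fit had delivery as the only term, and the spread between constructs and between clones counts as error. Of 28946 clusters, 4.27% passed (limma adjusted p under 0.05), 1.88% higher and 2.39% lower. The total of 1235 clusters hung on single arrays: it was 194 without shControl, 240 without shTET1#1, 438 without the array labelled shTET1#2, 467 without TET1-CD, 518 without mTET1-CD, 250 without TET1-FL, 195 without mTET1-FL and 2274 without the vector. Of the 24 members, 1 was higher and 1 lower, and 6 (25%) had an unadjusted p under 0.05, against 22.8% of all clusters. The members' median was 0.060, against -0.014 for all clusters, with 13 above 0 and 11 below.

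COX8C was lower on the shRNA arrays. It stood at 4.84 in shTET1#1, 4.30 on the array labelled shTET1#2 and 4.70 in shControl, against 6.04, 5.80, 6.01, 6.04 and 5.53 with TET1-CD, mTET1-CD, TET1-FL, mTET1-FL and vector. The groups do not overlap, and all 3 shRNA values lie below the array medians, where background may limit them, so no fold is given. COX8C also passed the filter only through the 5 arrays on which it was high, and its call among the members kept is no support for a difference of the group. The fitted difference was -1.27 ± 0.16 (SE, limma adjusted p = 0.00971). Without the filter the adjusted p was 0.017, and leaving out any 1 of the 8 arrays gave adjusted p between 0.00369 and 0.0339.

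UQCRHL rose, at 8.76 in shTET1#1, 8.83 on the array labelled shTET1#2 and 8.63 in shControl, against 8.20, 8.31, 8.31, 8.17 and 8.30 with TET1-CD, mTET1-CD, TET1-FL, mTET1-FL and vector. These are means of 8.74 ± 0.10 (SD, n = 3) against 8.26 ± 0.067 (SD, n = 5), and a fitted difference of 0.48 ± 0.090 (SE, limma adjusted p = 0.0289). The call was lost when shControl, shTET1#1, the array labelled shTET1#2, TET1-CD, mTET1-CD, TET1-FL or mTET1-FL was left out, with adjusted p of 0.0546 to 0.0824 and differences of 0.43 to 0.54, and it was kept without the vector (0.0226). UQCRH, its near-identical partner, averaged 7.003 ± 0.075 on the shRNA arrays and 6.86 ± 0.091 on the others (SD), a difference of 0.15 (adjusted p = 0.381). Probes of the pair may read both transcripts, so which gene carries the signal is uncertain.

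Other members separated the groups without passing. COX6B2 stood at 5.58 ± 0.063 on the shRNA arrays and 6.08 ± 0.18 on the plasmid and vector arrays (-0.50, limma adjusted p = 0.0526). Its shRNA values of 5.54 to 5.66 lie at or just above the array medians, where background may limit them and their spread. COX7A2L, a homologue of COX7A2 that takes part in joining complexes III and IV into supercomplexes, stood at 6.92 ± 0.055 against 7.22 ± 0.051 (-0.31, limma adjusted p = 0.0696, or 0.0498 without the vector array). UQCRB stood at 6.77 ± 0.17 against 7.50 ± 0.37 (-0.73, limma adjusted p = 0.0765; all SD). COX6C, a small membrane subunit of complex IV, stood at 6.34 ± 0.22 against 6.59 ± 0.061 (-0.25, limma adjusted p = 0.215). All shRNA arrays lay below all others for 5 of 24 members, namely these 4 and COX8C, against 8.18% of all clusters. They lay above for 1, UQCRHL, against 7.67%. COX8C was kept only through the arrays on which it was high, so its place in this count is no support for a difference of the group.

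Among members whose groups overlap, COX7C, a small subunit of complex IV, was the highest of that complex at 0.20, ATP5MJ the highest of complex V at 0.15 and ATP5IF1 the lowest at -0.39, with adjusted p between 0.254 and 0.453. COX6A1 differed by 0.059 (12.81 ± 0.069 on the shRNA arrays against 12.75 ± 0.051 on the others, SD). Between the vector and shControl alone, 2 of 24 members were at least 1.5-fold apart, against 16% of all clusters. These were COX8C, higher by 0.83 with the vector, and COX6B2, higher by 0.71. In shControl, COX8C (4.70) lay under the array median of 5.47 and COX6B2 (5.54) near it.

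**Figure D4:**
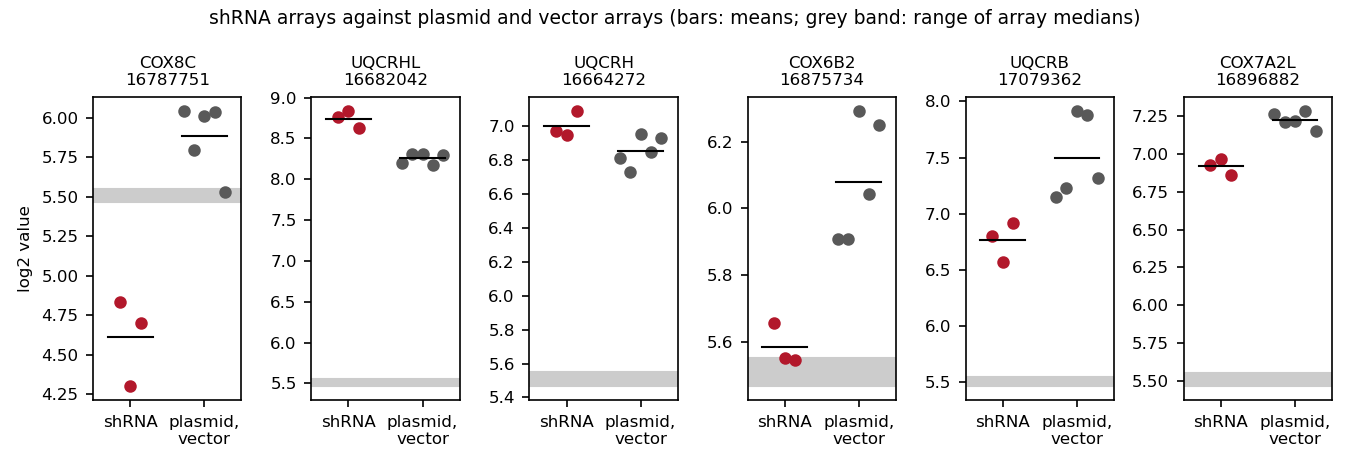
Log2 values of 6 members on the 3 shRNA arrays (shTET1#1, shTET1#2, shControl, left to right) and the 5 other arrays (TET1-CD, mTET1-CD, TET1-FL, mTET1-FL, vector, left to right), each panel with its own axis, bars at the means and the range of array medians in grey. COX8C, COX6B2, UQCRB and COX7A2L lie lower and UQCRHL higher on the shRNA arrays, with no overlap, whereas UQCRH overlaps between groups.

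Genes around the chain were read from lists of assembly factors, mitochondrial ribosomal proteins, tricarboxylic acid cycle enzymes, mitochondrial protein import, glycolysis and regulators. No member of any list passed in the knockdown, catalytic, plasmid or construct comparison (limma). In the comparison of shRNA with plasmid and vector arrays, 4 of 73 mitochondrial ribosomal protein genes rose and 1 fell, against 4.27% of all clusters in either direction. The highest that passed was MRPL15 (0.56), and MRPL10 fell by 0.60. Of 23 import genes, TOMM5 (0.58) and TOMM22 (0.40), parts of the translocase of the outer membrane, rose. Of 10 cycle genes, PDHB, a subunit of pyruvate dehydrogenase, rose by 0.37, and of 9 glycolysis genes, LDHB, a lactate dehydrogenase subunit, rose by 0.46. None of 36 assembly factors passed, the furthest being COA3 at 0.61 and PET100 at -0.57.

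Median differences on the shRNA arrays were 0.13 for mitochondrial ribosomal proteins, 0.18 for import, 0.17 for the cycle, 0.080 for glycolysis, 0.046 for assembly factors and -0.051 for the 5 regulators, against -0.014 for all clusters. Of the regulators named on the array, NRF1 stood at 7.79 in shTET1#1, 7.57 on the array labelled shTET1#2 and 7.70 in shControl, against 7.26 to 7.47 on the 5 others. Its groups do not overlap, and the difference was 0.28 (limma adjusted p = 0.12). YY1 differed by -0.13 and ESRRA, a nuclear receptor that activates respiratory genes, by 0.093. ESRRG, a related receptor, differed by -0.051 and POLRMT, the mitochondrial RNA polymerase, by -0.055. In the TET1 shRNA clones against shControl, all 9 glycolysis genes named on the array, of 18 listed, lay below 0 with a median of -0.19. Over all clusters 15096 of 28946 lay below 0, and both clones share the shControl array. PGAM1 was furthest at -0.77 (limma adjusted p = 0.579) on cluster 16769440, and which copy of the gene this cluster reads was not tested. With FL against CD, all 10 cycle genes named on the array, of 17 listed, lay below 0 with a median of -0.15. Of all named kept clusters, 6321 of 11560 lay below 0, with a median of -0.022. The subunits of the chain had a median of 0.12, with 15 of 24 above 0 and 9 below. Of the 5 subunits with a mean of at least 10, COX6A1, COX5A and UQCRC2 lay below 0, and COX4I1 and COX8A above.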

How the data were processed

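RNA of 8 samples was read on Affymetrix arrays. The authors deposited log2 signals. Per the submitters' processing notes the tools were RMA and Expression Console 1.3.1 of Affymetrix, and a build is not given in the sources used here. Of 53981 rows, 364 held no value. Clusters were named from the platform annotation. limma 3.58.1 under R 4.3.3 fitted all 8 arrays with a level for each of the 2 shRNA kinds, the vector, wild-type and mutant plasmids, plus a construct term. The fit left 2 residual degrees of freedom, so its p-values rest on the gap between the clones and on how wild-type minus mutant differs between constructs, not on replicate cultures. A separate fit of shRNA against other arrays left 6. Adjusted p-values are Benjamini-Hochberg over all 28946 kept clusters. A run of both fits on simulated data required only that the sizes of known differences were recovered, not that they passed the threshold. Pairs of single arrays have no test. Members and lists were chosen with earlier results of these data known. Named genes are COX6A1, the highest and lowest member of each complex in each comparison, members past the threshold, the regulators and the tissue forms, and the furthest genes of each list. Genes whose groups do not overlap, ESRRG, POLRMT, the steadiest subunits, COX6B1 and the listed genes that passed were named after their values were seen. Alternatives covered normalization, the filter, the cluster per gene and leaving out arrays. The number of arrays limits the precision.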

Additional observations from a re-analysis of the deposited data

Results flagged for a closer look

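Among the 5 plasmid and vector arrays, which carry different plasmids, 3 of the 24 kept members had 1 array far from the other 4. COX4I2 stood at 5.48 with TET1-FL, against 5.89 to 6.05 on the others. UQCRC1 stood at 8.49 with TET1-FL, against 8.66 to 8.72. COX6C stood at 6.70 with mTET1-FL, against 6.55 to 6.59. Chance alone gives such a gap in about 1 of 20 groups of values, and 12.5% of the members had one, against 10.1% of all kept clusters. The second COX6A1 cluster, 16757886, which no count of members used, differed by 1.53 between FL and CD and stood above the vector on both FL arrays, by 1.25 and 1.01. This cluster passed the low-signal filter only through the FL and vector arrays. Its values of 5.39 with TET1-CD and 5.47 with mTET1-CD lie under the array medians of 5.51, at background level. The size of the FL minus CD difference is therefore uncertain, and no fold is given.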

How the results depend on the processing

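The counts of members past the limma threshold in the knockdown, catalytic, plasmid and construct comparisons stayed at 0 under all alternatives run. In the main fit no cluster of any gene passed in these comparisons. TET1 cluster 16715048, which differed by 6.10 between plasmids and vector, did not pass either. With 2 residual degrees of freedom these counts of 0 therefore cannot tell unchanged members from changed ones. With each array centred on its median, 1 cluster passed for plasmids against vector. The members' median for wild-type minus mutant moved from -0.028 to -0.0081 with cyclic loess, -0.015 with median centring, -0.023 with the mean of all clusters of a symbol and -0.025 to -0.018 when the arrays of 1 construct were left out. For FL minus CD it was 0.092 with median centring, 0.14 over the 20 members above the median on all arrays, 0.14 with the mean of clusters and 0.097 with wild-type plasmids alone. In the comparison of shRNA with other arrays, 541 clusters and 1 member passed without the filter, and 1 of 20 members passed where all arrays had to lie above the median, a filter that removes COX8C. Leaving out 1 array gave 194 to 2274 clusters, 1 to 3 members and a members' median of 0.0026 to 0.083, the third member being COX7A2L without the vector. The median was 0.015 for shControl minus vector alone. UQCRHL had adjusted p = 0.0507 without the filter.

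Some differences near 0 changed sign. In the knockdown comparison, ATP5MJ stood at 0.017 with cyclic loess and 0.061 against the vector, and leaving out 1 clone gave -0.18 to 0.14. COX6A1 turned with the mean of its clusters, to -0.11 for knockdown, 0.014 for wild-type minus mutant, 0.76 for FL minus CD and -0.47 for shRNA against other arrays. It also stood at -0.11 to 0.0070 when 1 construct was left out for wild-type minus mutant, and at 0.035 with cyclic loess and 0.043 with mutant plasmids alone for FL minus CD. COX5B stood at -0.013 to 0.37 for wild-type minus mutant when the arrays of 1 construct were left out, COX6A2 at 0.23 for FL minus CD with mutant plasmids alone, and ATP5IF1 at 0.14 for shControl minus vector. The cause was not tested. Counting members at 2-fold in place of 1.5-fold gave 0 in each of the 11 pairs of arrays, against 0.563% to 4.54% of all clusters. No paired analysis was possible because the labels give no replicate numbers shared between groups, although the fit itself sets wild-type against mutant within each construct.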

Other observations

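Several members held exactly the same deposited value on more than 1 array. COX7C read 7.77 to the last digit written on shTET1#1, TET1-FL, mTET1-FL and vector, and 8 of 24 kept members (33.3%) shared a value between at least 2 arrays, against 26% of all kept clusters. Identity on at least 4 arrays was seen for 1 member, against 3.15% of all clusters. For such genes a difference of 0 between arrays says only that the deposited values are tied.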
